A study of Mus musculus with 4 samples.

Results

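The genes described here are 9 members of the Bcl2 family and Birc5, which encodes survivin. They were chosen by name, as the rows of the count tables whose mouse Ensembl identifiers belong to Bcl2, Bcl2l1, Mcl1, Bax, Bak1, Bid, Bcl2l11, Bbc3, Pmaip1 and Birc5. All 10 were found among the 42367 genes listed in any of the 4 tables. RNA was sequenced from mouse hematopoietic stem cells (HSCs) sorted as Lin- cKit+ Sca1+ CD48- CD150+, and from the fraction of HSCs with low surface CD41 and CD9 (CD41low/CD9low HSCs), each from Gfi1b WT and Gfi1b KO mice of the C57Bl6 strain. The first gate, as the study's methods give it, did not use CD41 or CD9, whereas the study's results name these cells CD41+/CD9+ HSCs. Whether the populations overlap is therefore not known. Gfi1b is a transcriptional repressor of stem cells, megakaryocytes and erythroid cells. In the mice, a Cre recombinase fused to the estrogen receptor was expressed from the Rosa locus, which is active in most cells, and tamoxifen was given to both genotypes to delete the floxed exons. By the study's methods KO mice were Gfi1b fl/fl and WT mice were Gfi1b wt/fl, both with Rosa-Cre, whereas the deposited design text describes floxed mice with or without the Cre. The sample titles read Gfi1 and the genotype field reads Gfi1b. Mice were matched for age and sex, the age of the mice used for the libraries is not given in the sources used here, and the bone marrow of several mice of a genotype (tibiae, femora and humeri) was pooled before sorting. There was 1 library for each genotype and population, so that no within-population difference has a replicate check.

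Bcl2-family proteins decide whether the outer membrane of mitochondria is opened during apoptosis. Anti-apoptotic proteins (Bcl2, Bcl-xL from Bcl2l1, and Mcl1) hold the effectors Bax and Bak in check, and the BH3-only proteins (Bid, Bim from Bcl2l11, Puma from Bbc3 and Noxa from Pmaip1) bind the anti-apoptotic proteins or the effectors and so favor pore formation. Mcl1 is a short-lived protein on which the survival of HSCs is known to depend. Survivin carries the BIR domain of the inhibitors of apoptosis, but it is also a subunit of the chromosomal passenger complex, which acts in mitosis together with Aurora kinase B (Aurkb), Incenp and borealin (Cdca8), and its RNA is made mainly in dividing cells.

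Within each pair of libraries, counts were scaled by size factors (median of ratios) and the KO/WT ratio was formed with its exact (Clopper-Pearson) 95% interval, which covers counting error only and compares the libraries, not the conditions. Ratios above 1.5 or below 0.6, the cutoffs of the study, were counted as higher or lower, among genes that reached 10 counts in either library of the pair. Of the members, 3 passed a cutoff in at least 1 population: Bcl2l11 was higher in KO HSCs and in KO CD41low/CD9low HSCs, Mcl1 was lower in KO HSCs, and Birc5 was lower in KO CD41low/CD9low HSCs. In HSCs, 1 of 10 members lay above 1.5, where 14.1% of all 15910 genes did, and 1 lay below 0.6, where 10.3% did. In CD41low/CD9low HSCs, 1 of 9 members lay above 1.5, against 13.5% of 14844 genes, and 1 below 0.6, against 12.0%. These shares are near the background, so the members are described one by one and not as a set that stands apart. The median KO/WT ratio was 0.893 over the 10 members in HSCs and 1.02 over the 9 measured in CD41low/CD9low HSCs, with 1.0 and 1.01 over all genes.

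The bases before the transcription start of these 3 genes are shown because they are the members past a cutoff (RefSeq, GRCm38.p6, plus strand of the chromosome, each of 250 bases). Capitals mark, on either strand, the letters AATC (the core that Gfi1 proteins recognize, held by 69.0% of 32851 promoter windows of the same length), the letters TTTGAA (the cell cycle homology region of genes induced late in the cycle, held by 15.99%) and the letters TGTTTAC (a forkhead core, held by 3.17%).
Bcl2l11 (chr2:128125788-128126037): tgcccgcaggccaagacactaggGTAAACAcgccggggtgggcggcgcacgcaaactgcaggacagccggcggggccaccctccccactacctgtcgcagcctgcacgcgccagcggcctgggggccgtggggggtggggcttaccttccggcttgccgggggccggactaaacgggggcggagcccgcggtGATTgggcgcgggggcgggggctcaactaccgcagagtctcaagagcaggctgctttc
Mcl1 (chr3:95658471-95658720): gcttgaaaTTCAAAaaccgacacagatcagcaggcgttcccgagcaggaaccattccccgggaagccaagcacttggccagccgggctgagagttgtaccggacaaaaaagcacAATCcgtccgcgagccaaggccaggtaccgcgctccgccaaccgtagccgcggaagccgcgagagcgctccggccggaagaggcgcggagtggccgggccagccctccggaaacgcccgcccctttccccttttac
Birc5 (chr11:117848987-117849236): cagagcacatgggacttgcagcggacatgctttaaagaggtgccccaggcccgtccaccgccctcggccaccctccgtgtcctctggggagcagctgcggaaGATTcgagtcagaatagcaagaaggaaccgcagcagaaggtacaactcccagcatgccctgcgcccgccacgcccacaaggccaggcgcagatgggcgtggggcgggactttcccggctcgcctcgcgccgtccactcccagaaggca
The window of Bcl2l11 holds the forkhead core 227 bases and AATC 58 bases before the start. The window before the second listed start of this gene holds AATC only, 162 bases before that start. The window of Mcl1 holds TTTGAA at 242 bases and AATC at 136 bases, and that of Birc5 holds AATC at 148 bases with neither of the other motifs. Of the 10 members, 9 had a window in the table. These matches describe letters only, and AATC is present in most windows of this length.

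Counts on genes summed to 50781007 in WT and 41690708 in KO HSCs, and 12732079 and 19123185 in the WT and KO libraries of CD41low/CD9low HSCs, so that 3 counts, the floor used below for a gene without counts, correspond to between 0.0591 and 0.236 CPM (counts scaled to a total of 1000000 per library). The tables of HSCs and CD41low/CD9low HSCs list different sets of genes, with 37140 in common, and a difference between the populations cannot be told apart from this difference in annotation and from the sequencing of the pairs. The count of the whole Gfi1b gene was 9256 in WT and 49910 in KO HSCs, and 611 in WT and 9741 in KO CD41low/CD9low HSCs. It includes exons outside the deleted part and therefore does not check the labels. Reads on no gene amounted to 105.3 per 100 counted reads in KO HSCs and to between 60.1 and 80.0 in the other libraries, and the median KO/WT ratio in HSCs was 0.867 in the tenth of genes with the shortest exons and 1.17 in the tenth with the longest. The same medians were 0.949 and 1.02 for CD41low/CD9low HSCs. Of 7 HSC markers (Kit, Ly6a, Slamf1, Procr, Hlf, Mecom, Fgd5) all had counts in the 4 libraries, with a summed level of between 1727 and 2319.8 CPM. Markers of megakaryocytes summed to 1298 and 1555 CPM in WT and KO HSCs and to 372 and 363 CPM in the WT and KO libraries of CD41low/CD9low HSCs. Markers of lymphoid cells lay between 2.35 and 8.48 CPM in sum, with between 0 and 6 of 8 at 0 counts (Cd3e, Cd8a and Ms4a1 in WT HSCs). Erythroid markers summed to 182 and 137 CPM in WT and KO HSCs and to 118 and 67.6 CPM in the CD41low/CD9low pair. Markers of myeloid cells summed to 404 and 492 CPM in WT and KO HSCs, and to 1080 CPM in WT and 277 CPM in KO CD41low/CD9low HSCs, where 8 of 8 had a ratio below 0.6, and their part in the results below was not tested. In such bulk samples, fewer cells of a type and less RNA per cell cannot be told apart.

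**Figure D1:**
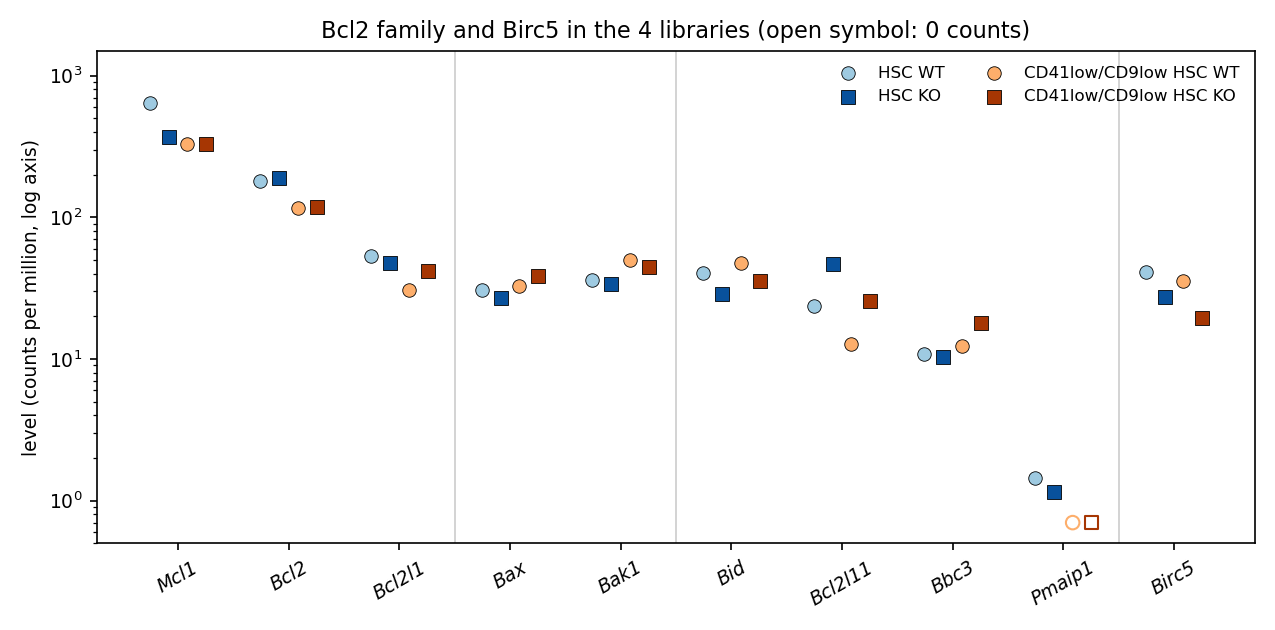
Level of each member in CPM (log axis) in the 4 libraries, 1 point per library, with circles for WT and squares for KO and open symbols for 0 counts, and with lines between anti-apoptotic, effector, BH3-only genes and Birc5. Mcl1 is highest in WT HSCs (637 CPM), Bcl2l11 lies higher in KO than in WT in both populations, Birc5 lies lower, and Pmaip1 has no counts in CD41low/CD9low HSCs.

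Among the anti-apoptotic genes, Mcl1 (ENSMUSG00000038612, chr3:95658788-95663176) had the most counts, and it had them unevenly. Its level was 637 CPM (32367 counts) in WT HSCs, 367 CPM (15281 counts) in KO HSCs, 329 CPM (4193 counts) in WT CD41low/CD9low HSCs and 327 CPM (6262 counts) in KO CD41low/CD9low HSCs. The library of WT HSCs thus stood above the other 3, which lay close together. The KO/WT ratio was 0.583 (0.572 to 0.594) in HSCs but 0.996 (0.957 to 1.04) in CD41low/CD9low HSCs, and the second ratio was 1.71 times the first (1.64 to 1.78, counting error only). The Mcl1 ratio in HSCs lies just below the cutoff of 0.6, and it was 0.605 after correction for the trend with exon length.

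Immediate-early genes, which are switched on within minutes by growth factors and stress, were distributed over the libraries in a like order. Their summed level was 5080 CPM in WT HSCs, 1691 CPM in KO HSCs, and 540 and 510 CPM in the WT and KO libraries of CD41low/CD9low HSCs. In HSCs 12 of 12 had a ratio below 0.6, from Atf3 with 0.113 (0.0893 to 0.141) and Nr4a1 with 0.184 (0.174 to 0.195) to Dusp1 with 0.482 (0.471 to 0.493) and Jun with 0.516 (0.507 to 0.524), with a median of 0.285. By the same cutoff, 1 of 10 was lower in CD41low/CD9low HSCs, Nr4a1 with 0.355 (0.253 to 0.494), and the median was 0.816. The part of these genes in the Mcl1 difference was not tested. The 4 measured genes for enzymes that attach ubiquitin to Mcl1 or remove it had no ratio past a cutoff in either population, with medians of 1.12 and 1.08. The ubiquitin ligase Huwe1 (also Mule) had ratios of 1.40 (1.39 to 1.42) in HSCs but 1.07 (1.04 to 1.10) in CD41low/CD9low HSCs, and the deubiquitinase Usp9x had 1.18 (1.16 to 1.20) and 1.11 (1.07 to 1.15).

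Bcl2 (ENSMUSG00000057329, chr1:106538178-106714274) is the founding member of the family. Its levels lay closer between the genotypes than between the populations. It had 181 CPM in WT HSCs, 190 CPM in KO HSCs, 116 CPM in WT CD41low/CD9low HSCs and 119 CPM in KO CD41low/CD9low HSCs. The populations did not overlap, with HSCs higher, and the share of all genes that separate so was not determined. The KO/WT ratios were 1.06 (1.03 to 1.10) and 1.02 (0.956 to 1.09). With the correction for exon length the ratio in HSCs was 0.9498, on the other side of 1. The antisense transcript D630008O14Rik and 2 other annotated genes lie across the Bcl2 locus, and since the strand setting of the counting is not given in the sources used here, reads of overlapping genes cannot be told apart.

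Bcl2l1 (ENSMUSG00000007659, chr2:152780668-152831728), which encodes Bcl-xL, went in opposite directions in the pairs. Its level was 53.6 and 47.4 CPM in WT and KO HSCs, and 30.9 and 41.7 CPM in the WT and KO libraries of CD41low/CD9low HSCs. The KO/WT ratio was 0.896 (0.845 to 0.9496) in HSCs, against 1.35 (1.20 to 1.53) in CD41low/CD9low HSCs, neither past a cutoff. The levels in KO libraries (47.4 and 41.7 CPM) lay nearer to each other than those in WT libraries.

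The effectors Bax (ENSMUSG00000003873, chr7:45461697-45466898) and Bak1 (ENSMUSG00000057789, chr17:27019810-27029009) form the pores in the outer membrane. Bax had 30.9 and 27.1 CPM in WT and KO HSCs and 32.7 and 38.7 CPM in the WT and KO libraries of CD41low/CD9low HSCs. Its ratios were 0.890 (0.823 to 0.961) and 1.19 (1.05 to 1.34), and the correction for exon length moved the first to 1.02. Bak1 had 36.0 and 33.7 CPM in WT and KO HSCs and 49.6 and 44.3 CPM in the WT and KO libraries of CD41low/CD9low HSCs, with ratios of 0.948 (0.884 to 1.02) and 0.895 (0.806 to 0.993). None of these 4 ratios passed a cutoff. Bak1 overlaps Ggnbp1 on the other strand, and Bax overlaps the annotated gene Gm45808.

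**Figure D2:**
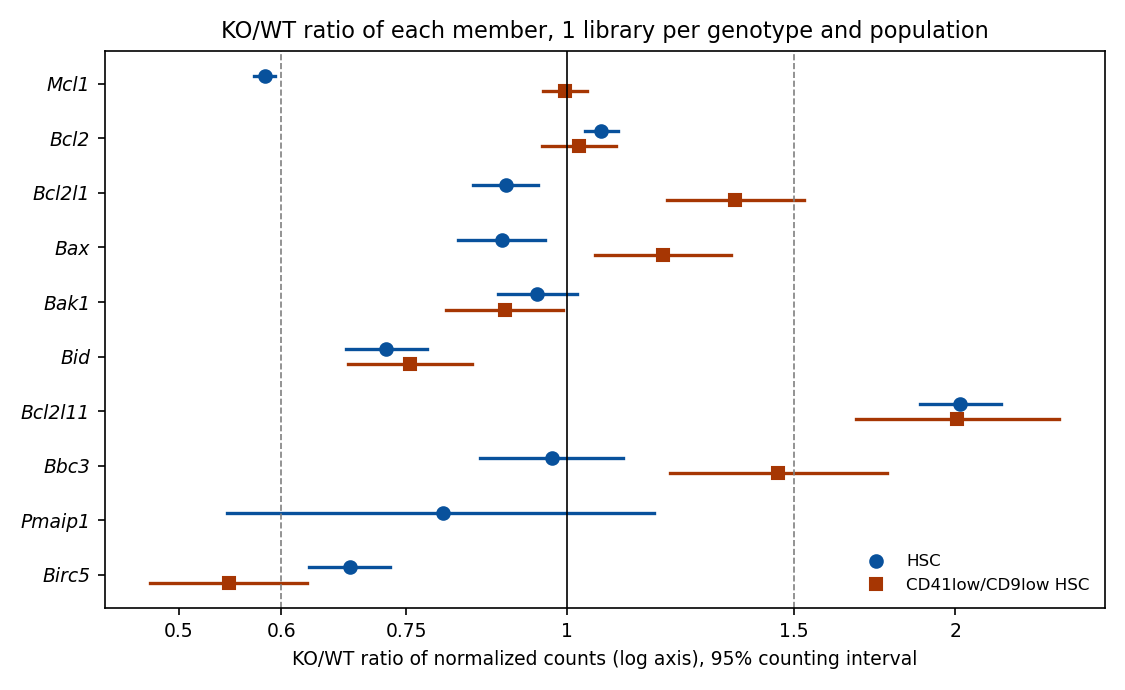
KO/WT ratio of normalized counts (log axis) of each member in HSCs (circles) and CD41low/CD9low HSCs (squares), with bars for the exact 95% counting interval and dashed lines at 0.6 and 1.5. Bcl2l11 lies at 2.02 and 2.004, Birc5 at 0.678 and 0.546, Bid at 0.724 and 0.755, and Mcl1 at 0.583 and 0.996, while Pmaip1 has no ratio in CD41low/CD9low HSCs.

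Among the BH3-only genes, Bcl2l11 (ENSMUSG00000027381, chr2:128126038-128162547) had nearly the same ratio in both populations, and it was the member furthest from 1 in each. Bim, its product, binds all anti-apoptotic proteins of the family and is required for the death of many blood cells after withdrawal of cytokines. Its level was 23.7 CPM (1202 counts) in WT HSCs, 47.1 CPM (1964 counts) in KO HSCs, 12.8 CPM (163 counts) in WT CD41low/CD9low HSCs and 25.6 CPM (490 counts) in KO CD41low/CD9low HSCs. Both KO libraries lay above the WT library of the same population, and the KO library of CD41low/CD9low HSCs lay close to the WT library of HSCs. The KO/WT ratio was 2.02 (1.88 to 2.17) in HSCs, next to 2.004 (1.68 to 2.41) in CD41low/CD9low HSCs, and the quotient of these ratios was 0.994 (0.821 to 1.20). With the correction for exon length, the ratios were 1.84 and 1.95. A like ratio in both populations was not particular to Bcl2l11. The same quotient was 0.961 (0.894 to 1.03) for Bcl2, 0.943 (0.833 to 1.07) for Bak1 and 1.04 (0.915 to 1.19) for Bid.

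Bid (ENSMUSG00000004446, chr6:120891930-120916853), which links death receptors to mitochondria once cleaved by caspase 8, was below 1 in both pairs. Its level was 40.2 and 28.7 CPM in WT and KO HSCs and 47.3 and 35.7 CPM in the WT and KO libraries of CD41low/CD9low HSCs. The ratios of 0.724 (0.674 to 0.778) and 0.755 (0.676 to 0.844) did not reach the cutoff of 0.6. Bid overlaps Bcl2l13 and 2 other annotated genes.

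Bbc3 (ENSMUSG00000002083, chr7:16308393-16318205) encodes Puma, a target of p53. It had 10.8 and 10.3 CPM in WT and KO HSCs and 12.3 and 17.9 CPM in the WT and KO libraries of CD41low/CD9low HSCs. The ratios were 0.972 (0.855 to 1.11) and 1.46 (1.20 to 1.77), the second just inside the cutoff of 1.5. In a list of 8 other p53 targets no ratio lay above 1.5 in this population. Their median ratio was 0.823 in CD41low/CD9low HSCs, where 2 were lower (Cdkn1a, with 33 counts in WT and 6 in KO, and Perp, with 29 and 13, both named after their values were seen). In HSCs the median was 1.09, and 2 were higher (Zmat3 with 2.48, 2.21 to 2.80, and Sesn2 with 1.52, 1.37 to 1.69) and 1 was lower (Perp with 0.202, 0.119 to 0.326).

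Pmaip1 (ENSMUSG00000024521, chr18:66458533-66465565), which encodes Noxa, a BH3-only protein that binds Mcl1, was the least abundant member. It had 74 counts in WT HSCs (1.46 CPM) and 48 in KO HSCs (1.15 CPM), with a ratio of 0.801 (0.545 to 1.17), and 0 counts in both libraries of CD41low/CD9low HSCs. A count of 0 allows up to 0.236 CPM in the WT and 0.157 CPM in the KO library, so that the level was at least 6.18-fold lower than in HSCs in WT and at least 7.34-fold lower in KO. At the levels of HSCs, about 18.6 and 22.0 counts would have been found at these depths. As the tables of the populations list different sets of genes, a lower level of Pmaip1 cannot be told apart from a difference in how its reads were counted. No KO/WT comparison was possible in this population.

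Birc5 (ENSMUSG00000017716, chr11:117849251-117855743) was below 1 in both pairs. Its level was 40.96 CPM (2080 counts) in WT HSCs, 27.4 CPM (1143 counts) in KO HSCs, 35.7 CPM (454 counts) in WT CD41low/CD9low HSCs and 19.5 CPM (372 counts) in KO CD41low/CD9low HSCs. Both WT libraries lay above both KO libraries, and the share of all genes that separate so was not determined. The KO/WT ratio was 0.678 (0.630 to 0.729) in HSCs, as against 0.546 (0.475 to 0.628) in CD41low/CD9low HSCs, of which the second passed the cutoff of 0.6, and the second ratio was 0.805 times the first (0.690 to 0.940).

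The partners of survivin in the chromosomal passenger complex also had ratios below 1 in both pairs. In HSCs they were 0.635 (0.599 to 0.674) for Cdca8, 0.695 (0.664 to 0.727) for Incenp and 0.731 (0.684 to 0.781) for Aurkb. For CD41low/CD9low HSCs the ratios were 0.694 (0.638 to 0.756) for Incenp, 0.784 (0.693 to 0.887) for Aurkb and 0.848 (0.761 to 0.945) for Cdca8. None passed the cutoff. Of 12 genes of mitosis, 12 lay below 1 in both pairs, with a median ratio of 0.671 in HSCs and 0.710 in CD41low/CD9low HSCs. In HSCs they ranged from Cdk1, the kinase that drives entry into mitosis, with 0.594 (0.565 to 0.625) to Mki67, a proliferation antigen, with 0.958 (0.943 to 0.973), and in CD41low/CD9low HSCs from the checkpoint kinase Bub1 with 0.405 (0.346 to 0.473) and Aurora kinase A (Aurka) with 0.485 (0.416 to 0.565) to Plk1 with 0.818 (0.686 to 0.976). These 3 genes, Cdk1 in HSCs and Bub1 and Aurka in CD41low/CD9low HSCs, were the ones past the cutoff. The summed level of the 12 genes was 2162 and 1660 CPM in WT and KO HSCs and 1288 and 916 CPM in the WT and KO libraries of CD41low/CD9low HSCs. Like the passenger complex, 6 other genes with the BIR domain of survivin, among them Xiap, Birc2 and Birc6, had no ratio past a cutoff. Their medians were 1.05 for HSCs and 1.02 for CD41low/CD9low HSCs, with 2 and 3 of the 6 genes below 1. The highest of them in HSCs were Birc6 with 1.42 (1.40 to 1.44) and Xiap with 1.39 (1.34 to 1.43). The lowest for CD41low/CD9low HSCs was Naip2 with 0.747 (0.668 to 0.836), between the passenger complex ratios of 0.694 and 0.848.

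The genes with the profile most like Birc5 over the 4 libraries were sought among 9839 protein-coding genes with at least 100 counts in each, by the distance between log2(CPM + 1) profiles centred on their mean. They were Dlgap5 (distance 0.0537), Troap (0.133) and Hacd1 (0.139), against a median distance of 0.932. Of these 3, Dlgap5 and Troap encode proteins of the mitotic spindle, and a spindle gene is also among those nearest to Mcl1, named below. Dlgap5 had KO/WT ratios of 0.706 and 0.566 in HSCs and CD41low/CD9low HSCs, near those of Birc5. Hacd1, about as near as Troap, had 0.749 and 0.511. The genes nearest to Mcl1 were Slc16a1, a lactate transporter (0.145), Tacc3, a spindle protein (0.148), and Zc3h12a, which encodes the RNase Regnase-1 (0.174), with a median distance of 0.912 over all genes. With 4 libraries such likeness describes the libraries and nothing about shared control.

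**Figure D3:**
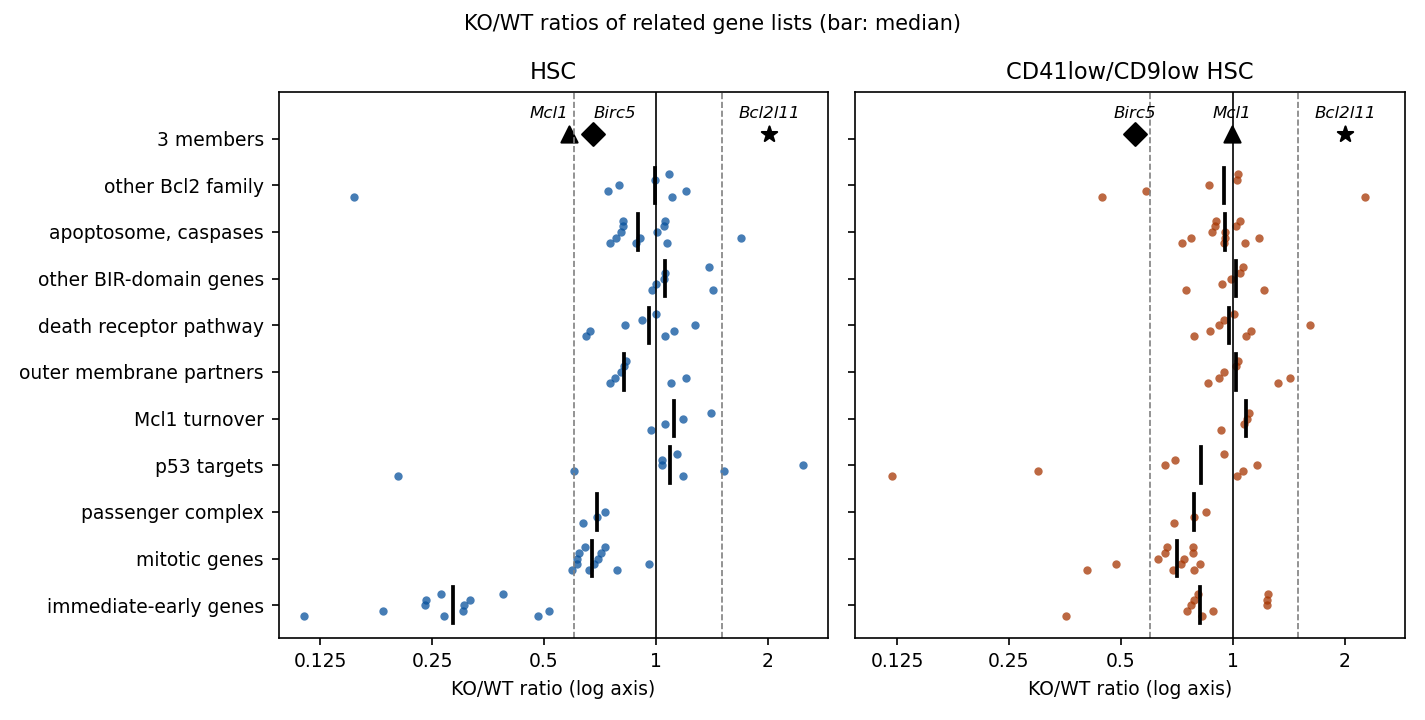
KO/WT ratios (log axis) of the genes of each list in HSCs (left) and CD41low/CD9low HSCs (right), 1 point per gene with vertical spread for visibility only, bars for the list's median and dashed lines at 0.6 and 1.5. Passenger complex and mitotic genes lie below 1 in both populations, as Birc5 does, while immediate-early genes have a median of 0.285 in HSCs and of 0.816 in CD41low/CD9low HSCs.

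The rest of the pathway stayed mostly between the cutoffs, as most of all genes did. In HSCs 14.1% of all genes lay above 1.5 and 10.3% below 0.6, and in CD41low/CD9low HSCs 13.5% and 12.0%. Of the 12 genes of the apoptosome and caspase cascade, 1 was higher in KO HSCs, Casp9, the initiator caspase of the mitochondrial pathway, with 1.69 (1.57 to 1.83, 22.8 CPM in WT and 38.0 CPM in KO), and none passed a cutoff in CD41low/CD9low HSCs. The medians of the list were 0.893 and 0.951. The lowest in HSCs were cytochrome c (Cycs) with 0.751 (0.7005 to 0.804) and Htra2 with 0.778 (0.733 to 0.826). Of 8 genes of the death receptor pathway, none passed a cutoff in HSCs and 1, Fas, was higher in CD41low/CD9low HSCs with 19 and 46 counts and an interval of 0.927 to 2.92 that includes 1. Their medians were 0.959 and 0.976. Of 7 partners in the outer membrane, none passed a cutoff, with medians of 0.819 in HSCs and 1.02 in CD41low/CD9low HSCs. Bnip3l (Nix), a receptor for the removal of mitochondria, was the highest of them in both, with 1.21 (1.17 to 1.24) and 1.42 (1.33 to 1.52).

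Of 11 further genes of the Bcl2 family, 7 could be measured in HSCs and 6 in CD41low/CD9low HSCs, with median ratios of 0.994 and 0.946. In HSCs 1 was lower, Bik, with 16 and 2 counts. In CD41low/CD9low HSCs the BH3-only gene Bmf was lower with 0.583 (0.473 to 0.718), as was Bok with 60 and 40 counts, and Bcl2l14 was higher with 32 and 109 counts. Bmf was 0.743 (0.631 to 0.874) in HSCs, where it was the lowest among those with at least 100 counts, and Bcl2l2, the close relative of Bcl2 that encodes Bcl-w, was the highest with 1.21 (1.13 to 1.28).

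A fit to all 4 libraries (edgeR, quasi-likelihood) took population and genotype as terms, with 1 residual degree of freedom, so that the populations served as replicates of the genotype effect and the genotypes as replicates of the population effect. If the populations of a genotype were sorted from the same pool of marrow, the p-values measure the spread between sorted fractions and not between mice. The median prior degrees of freedom were 15.7. The SEs and p-values thus rest mostly on the spread shared over genes, not on the spread of each gene alone. Of the 10 members, 1 differed between the genotypes at an adjusted p below 0.05, against a background of 0.535% (higher) and 0.308% (lower) of 14940 genes. It was Bcl2l11, higher by 1.005 ± 0.22 on the log2 scale (SE, 4 libraries, edgeR adjusted p = 0.0362), and higher in KO in 2 of 2 populations. The call rested on the settings: with DESeq2 the adjusted p was 0.0636, with median-of-ratios factors in edgeR it was 0.0532, and with a minimum of 50 counts 0.0742, while the difference was 1.003, 1.003 and 0.998.

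The other members did not pass. Birc5 had a difference of -0.71 ± 0.21 (edgeR adjusted p = 0.159), Bid of -0.44 ± 0.19 (edgeR adjusted p = 0.428) and Mcl1 of -0.40 ± 0.17 (edgeR adjusted p = 0.438), each below 0.05 before adjustment. The value of Mcl1 averages a ratio of 0.583 with one of 0.996. The remaining 6 had adjusted p-values of at least 0.915 in edgeR, with differences between -0.12 for Bak1 and 0.24 for Bbc3 among the 5 that had counts in the 4 libraries. In the same fit, 12 of 12 mitotic genes had differences below 0, with a median of -0.56 against 0.01 over all genes, of which 0 passed (lowest edgeR adjusted p = 0.0786, for Cdk1) and 10 were below 0.05 before adjustment. Of the passenger complex, 3 of 3 were below 0, and 0 passed in edgeR (lowest adjusted p = 0.161, for Incenp), with 3 below 0.05 before adjustment. Of the immediate-early genes, 4 of 12 were lower (Fos, Junb, Nr4a1 and Zfp36), and 3 with DESeq2. Of the other lists of the pathway (further Bcl2 family, caspase cascade, BIR-domain genes, death receptors, outer membrane, Mcl1 turnover and p53 targets) no gene passed in edgeR, and 1, in the outer membrane list, was below 0.05 before adjustment. DESeq2 gave 0 calls in these lists, in the mitotic genes and in the passenger complex. Of the marker lists, Procr, an HSC marker, was higher and Prtn3, a myeloid marker, lower in KO in edgeR, and DESeq2 gave 1 call among HSC markers and 0 among myeloid markers.

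**Figure D4:**
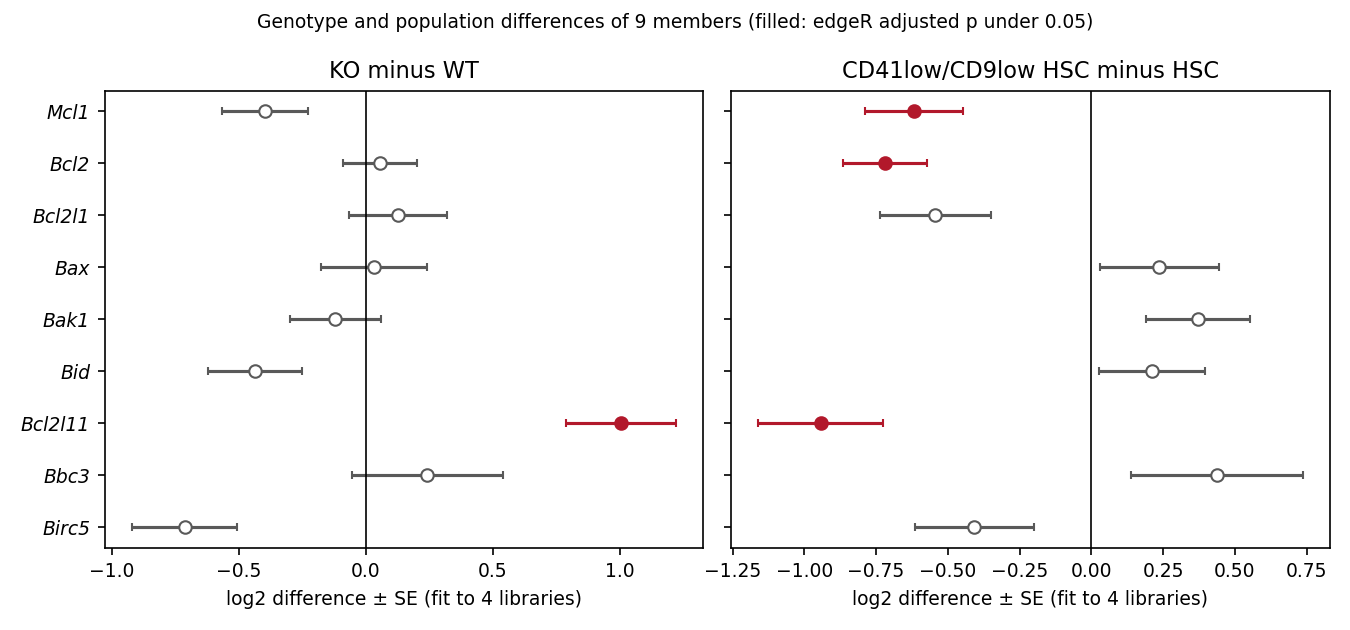
Difference on the log2 scale, with the SE as bars, between KO and WT (left) and between CD41low/CD9low HSCs and HSCs (right) for 9 members in the fit to 4 libraries, with filled points for an edgeR adjusted p below 0.05. Pmaip1 is left out because it has 0 counts in CD41low/CD9low HSCs. Bcl2l11 is the filled point on the left (1.005), and Bcl2, Mcl1 and Bcl2l11 are those on the right (-0.72, -0.62 and -0.94).

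More members differed between the populations than between the genotypes, as did more of all genes. With 10 members, the counts below are not read as a result about the members as a set. Of 10, 3 were lower in CD41low/CD9low HSCs than in HSCs and 0 were higher, where 12.6% of 14940 genes were lower and 8.24% higher (edgeR). Before adjustment 5 members were below 0.05, and DESeq2 gave 4 lower and 0 higher. Bcl2 had a difference of -0.72 ± 0.15 (edgeR adjusted p = 0.00221), Bcl2l11 one of -0.94 ± 0.22 (edgeR adjusted p = 0.00537) and Mcl1 one of -0.62 ± 0.17 (edgeR adjusted p = 0.0161), each with the lower level in 2 of 2 genotypes. For Mcl1 the step was from 637 to 329 CPM in WT and from 367 to 327 CPM in KO. Bcl2l1 had -0.54 ± 0.19 (edgeR adjusted p = 0.0560) and Pmaip1, with its 0 counts, an edgeR adjusted p of 0.0559, so that they lay at the threshold. Birc5 had -0.41 ± 0.21 (edgeR adjusted p = 0.186), and Bak1 0.37 ± 0.18 (edgeR adjusted p = 0.166). Bax, Bid and Bbc3 lay above 0 as well, at 0.24, 0.21 and 0.44, and did not pass. Of the mitotic genes, 7 of 12 were lower in CD41low/CD9low HSCs, with a median of -0.66, and of the immediate-early genes 11 of 12, with a median of -2.97. Of the 6 BIR-domain genes, 3 were lower, Xiap (-0.80 ± 0.15), Birc6 (-0.80 ± 0.15) and Naip2 (-0.59 ± 0.18), and of the caspase cascade Apaf1, the scaffold of the apoptosome, was lower (-0.83 ± 0.16, edgeR adjusted p = 0.00132), while Diablo (0.45 ± 0.15) and Htra2 (0.51 ± 0.16), which counteract the inhibitors of apoptosis, were higher. Megakaryocyte markers were lower in 7 of 8 and erythroid markers in 4 of 7. The megakaryocyte marker Itga2b (-1.94) encodes CD41, by which the CD41low/CD9low cells were sorted, so its value is not independent of the sorting. Of 8 myeloid markers 4 were higher and 1 lower, and of 7 HSC markers 3 were higher and 1 lower. The HSC markers Kit, Ly6a (Sca1) and Slamf1 (CD150) encode proteins used in the sorting as well. The part of these markers in the differences was not tested.

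Levels of different genes were compared per length, as CPM divided by the length of the union of annotated exons in kilobases. On this scale Mcl1 stood first in each library, at 186 and 107 in WT and KO HSCs and at 96.4 and 95.8 in the WT and KO libraries of CD41low/CD9low HSCs. In WT HSCs it was followed by Bcl2 (19.8) and Bax (19.6), which lay within 1.01-fold of each other, then by Bak1 (14.9), Birc5 (12.0), Bcl2l1 (11.7), Bid (11.3), Bbc3 (5.07), Bcl2l11 (2.95) and Pmaip1 (0.533). With 1 library, Birc5, Bcl2l1 and Bid, between 11.3 and 12.0, could not be put in an order, nor could Bcl2 and Bax. The order also depends on the length taken: with the longest transcript of each gene it was Mcl1, Bax (28.1), Bcl2 (25.2), Bcl2l1 (20.9), Bid (16.7), Bak1 (15.1) and Birc5 (12.3), so that Bak1 came after Bcl2l1 and Bid. In WT CD41low/CD9low HSCs, Bax (20.7) and Bak1 (20.6) came next after Mcl1, ahead of Bid (13.3) and Bcl2 (12.7). Bcl2l11 was the lowest member with counts in that library at 1.59, and reached 3.19 in KO, against 5.87 in KO HSCs.

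Summed over the 9 family members, the anti-apoptotic genes made up 80.0% of the level in WT HSCs and 73.3% in KO HSCs, and 65.1% and 64.6% in the WT and KO libraries of CD41low/CD9low HSCs. Mcl1 alone made up 68.5%, 56.8%, 54.2% and 52.5% in the same order. The effectors held 12.7%, 16.5%, 23.2% and 23.5%, and the BH3-only genes 7.30%, 10.2%, 11.6% and 11.9%. The summed level of the BH3-only genes themselves was 19.9 in WT and 19.3 in KO HSCs, with Bcl2l11 higher and Bid lower in KO. That of the effectors was 34.5 in WT and 31.2 in KO HSCs, so their larger share in KO HSCs was not a higher level. There were 63.3 units of Mcl1 for each of Bcl2l11 in WT HSCs, 18.3 in KO HSCs, 60.4 in WT and 30.02 in KO CD41low/CD9low HSCs, and for Bcl2 the quotients were 6.71, 3.54, 7.97 and 4.06. With the longest transcript the quotients of Mcl1 and Bcl2l11 were 39.7, 11.5, 37.9 and 18.8. The quotients of Mcl1 and of Bcl2 to Bcl2l11 were lower in KO in both populations. A gene has the same length in all libraries, so this direction cannot depend on the length taken. Each quotient combines KO/WT ratios given above and is not a further result. With Bcl2 nearly level between the genotypes, its quotient mostly restates the higher Bcl2l11 in KO. The same holds for Mcl1 in CD41low/CD9low HSCs, where its ratio was 0.996. In HSCs the quotient of Mcl1 also holds its own ratio of 0.583. The shares depend on the length taken for each gene, and with the longest transcript the anti-apoptotic genes made up 76.6% in WT HSCs. They are levels of RNA in 1 library each and have no error beyond counting.

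**Figure D5:**
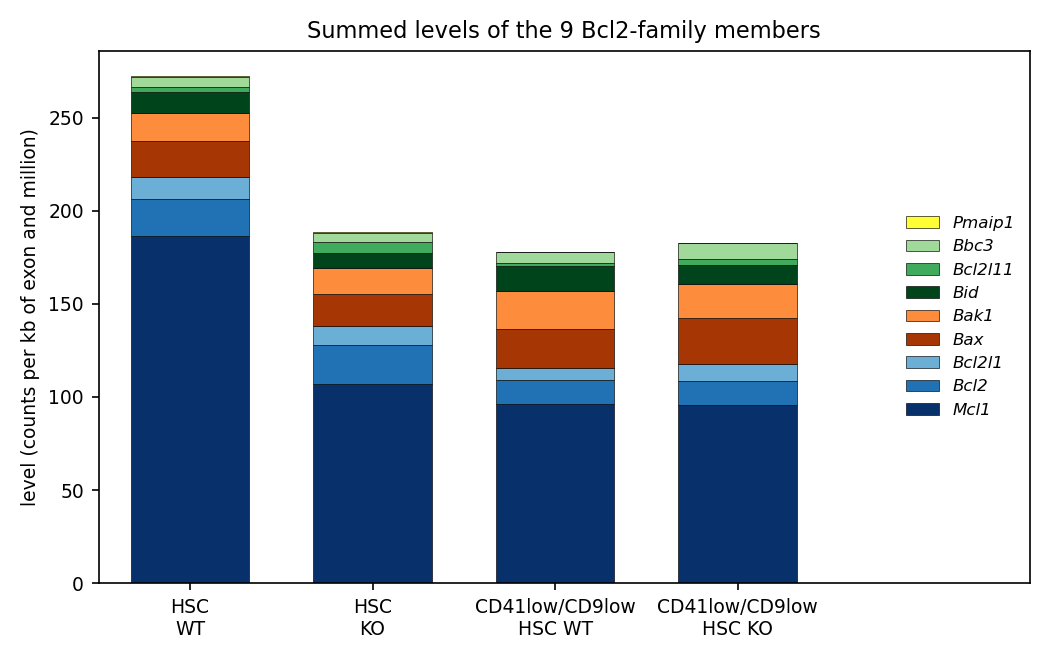
Stacked levels of the 9 Bcl2-family members in CPM per kilobase of exon in each library, from Mcl1 at the base (blue, anti-apoptotic) over the effectors (orange) to the BH3-only genes (green, with Pmaip1 in yellow). The bar of WT HSCs is the tallest, with Mcl1 at 186, against between 95.8 and 107 in the other libraries.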

How the data were processed

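RNA of 4 pools of sorted cells was sequenced from strand-specific poly(A) libraries. The authors aligned the reads to mm10 with TopHat2 (2.0.10 per the labels), processed them with SAMtools, counted them per Ensembl gene with HTSeq and deposited the raw counts. The HTSeq strand setting and the annotation releases are not given in the sources used here. Rows for reads on no feature or ambiguous reads were left out of the gene counts (0.442 to 0.841 ambiguous reads per 100 counted).

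Gene symbols, coordinates and exon lengths came from GENCODE M21 (GRCm38), and 40340 of 42367 genes matched. Size factors of each pair (median of ratios) were used to scale the counts (KO/WT quotient 0.810 and 1.5), after the authors' use of DESeq. Genes that reached 10 counts in 2 or more of the 4 libraries were fitted with edgeR 4.0.16 (TMM, glmQLFit and glmQLFTest, Benjamini-Hochberg adjustment over 14940 genes, R 4.3.3), and with DESeq2 1.42.0 as an alternative. SEs were derived from the F statistic. The ratios and the edgeR fit were tried on simulated data, and DESeq2 was not. The counts simulated for the fit had less spread and larger changes than these data, so they do not check the call of Bcl2l11. Intervals cover counting error only, since there was 1 library in each group. The reads carry no molecular identifiers, so copies of a fragment were counted as separate reads, and the intervals may be too narrow even for counting error.

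The members and the 15 other lists were chosen with earlier results of these data known. One further HSC marker is not reported here. Named from each list were at most the 2 highest and the 2 lowest ratios among genes that reached 100 counts in either library of the pair, and genes outside that rule were named after their values were seen.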

Additional observations from a re-analysis of the deposited data

Results flagged for a closer look

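The KO/WT ratio of Bcl2l1 lay on opposite sides of 1 in the populations, with counting intervals that exclude 1 (0.896 in HSCs and 1.35 in CD41low/CD9low HSCs), and the second was 1.51 times the first (1.32 to 1.72). Bax did the same (0.890 and 1.19), and its second ratio was 1.33 times the first (1.16 to 1.54), although the ratio of Bax in HSCs was 1.02 after the correction for exon length. With 1 library in each group, these differences between the populations were not tested.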

How the results depend on the processing

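Of 95 recomputed KO/WT ratios of the members (other size factors, a pseudocount, exon length), 91 moved by less than their counting interval. The other 4 were in HSCs under the correction for exon length: Bcl2 0.9498, Mcl1 0.605, Bax 1.02 and Bcl2l11 1.84, so that 1 member instead of 2 passed a cutoff there. The number of genes that differed between genotypes in edgeR was 126 (80 higher, 46 lower), and it was 206 (121 and 85) with total counts only, 420 (254 and 166) with no filter and 69 (50 and 19) with at least 50 counts. The number of members among them was 0 instead of 1 with median-of-ratios factors, with at least 50 counts and with DESeq2, and the adjusted p of Bcl2l11 ranged from 0.00187 to 0.0742 over 5 alternatives. The cause was not tested. Between populations, 1231 genes were higher and 1876 lower, and with total counts only 1719 and 1650, and 5 members instead of 3 were lower with no filter (Bcl2l1 and Pmaip1 besides). With no filter or at least 50 counts, 7003 and 2223 genes passed a cutoff in HSCs, instead of 3887. In CD41low/CD9low HSCs 1684 did with at least 50 counts, instead of 3786. With the longest transcript as length, anti-apoptotic genes made up 76.6%, 69.7%, 61.1% and 60.6% in WT and KO HSCs and WT and KO CD41low/CD9low HSCs. Leaving out a library was not possible, since 3 libraries leave 0 residual degrees of freedom.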
